A study of Mus musculus with 19 samples.

Results

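Myoc Scara5 fibroblasts are described here as single-cell barcodes from mouse tissue at a tendon injury. A barcode was a member when it held Pdgfra, the receptor that marks fibroblasts, and at least 2 of the 4 transcripts Myoc, Scara5, Inmt and Abca8a, when Pi16 and Lrrc15 had no unique molecular identifier (UMI, one captured RNA molecule), and when Ptprc, the pan-leukocyte gene, had at most 1. Barcodes also needed at least 500 genes and at most 25% of their UMIs from mitochondrial genes. The rule found 578 members among 33746 barcodes of the 16 libraries outside day 3, in a series of 39541 barcodes and 19 libraries, and 10311 of the 33746 barcodes held Pdgfra. Members were thus chosen by the measured UMIs of 8 genes, and the levels of these genes are given as a description.

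The model was a scald burn over 30% of the body surface with transection of the Achilles tendon, an injury after which ectopic bone forms. Groups were day 0, day 7 and day 21 after injury, and p7N3, mice given a CD47-activating peptide at 10 mg/kg intraperitoneally each day for 3 days before and 3 days after injury, with 4 libraries each. The p7N3 tissue was taken on day 7, although the label of replicate 4 names no day, and the study describes PBS-treated mice as its comparator, while the labels name no vehicle for the day 7 group. The study's text describes young adult male C57BL/6J mice and day 0 as a time without injury, while the labels list the burn for day 0 as well. The labels name C57 and LysmCre/Tgfb1fx/fx mice for the series and assign a genotype to no library. In that cross, Cre is driven from the lysozyme locus of myeloid cells, so a Tgfb1 deletion would lie in those cells and not in fibroblasts. Replicate 4 of each group carried other processing notes than replicates 1 to 3. Differences between mice were to be gauged from repeat single-cell runs of each time, according to the study's reporting summary. The labels tie no library to an animal, so p-values measure the spread between these libraries, part of which may be technical.

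Fibroblasts of uninjured connective tissue keep the matrix in repair, hold growth factors in store and make little new collagen. After injury, they or their neighbours turn on genes for matrix assembly and contraction, such as Postn and Cthrc1, and later return in part to the earlier programme. Myoc encodes the secreted glycoprotein myocilin, Scara5 a scavenger receptor that takes up ferritin, Inmt an amine N-methyltransferase and Abca8a a lipid transporter. Pi16 marks adventitial fibroblasts around vessels, and Lrrc15 marks activated fibroblasts.

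The 4 marker genes lie apart in the genome (build GRCm38, GENCODE vM21 annotation, gene bodies including introns). Myoc spans chr1:162639155-162649693 on the plus strand and Scara5 spans chr14:65666403-65764826 on the plus strand. Inmt spans chr6:55170626-55175043 and Abca8a spans chr11:110025634-110095978, both on the minus strand. UMIs were counted per gene at the 3′ end, so isoforms of these genes were not separated.

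The label held in part. On day 0 the members had 36076 ± 4512 CPM (UMIs of a gene scaled to a common total of UMIs of the class, mean ± SD, n = 4 libraries) of Gsn, which encodes the actin-severing protein gelsolin. Endothelial barcodes of the same libraries had 458 ± 141 CPM and leukocyte barcodes 426 ± 72.0 CPM of Gsn. Fibroblast genes were high, with 15525 ± 1172 CPM of Dcn, the collagen-binding proteoglycan decorin, and 9315 ± 1291 CPM of Col1a1. Against the Pi16 fibroblasts, however, Myoc and Scara5 did not set the members apart. Myoc stood at 1040 ± 260 CPM in members and 1100 ± 78.1 CPM in Pi16 fibroblasts, and Scara5 at 334 ± 57.7 CPM against 404 ± 61.7 CPM. Inmt was at 364 ± 87.5 CPM in members and 149 ± 56.5 CPM in Pi16 fibroblasts. Outside the rule, the members' mean was higher for Apod, a lipid-binding apolipoprotein, with 1884 ± 667 CPM against 505 ± 311 CPM, and for Cxcl14, a chemokine, with 1859 ± 223 CPM against 749 ± 162 CPM. Penk, which encodes proenkephalin, was at 282 ± 51.0 CPM against 105 ± 15.4 CPM. Not all genes went this way. Efemp1, a matrix gene, was at 130 ± 29.9 CPM in members and 303 ± 31.1 CPM in Pi16 fibroblasts, as scaled for the later comparison of changes. These differences between classes were not tested, since the rule chose the cells.

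Few endothelial and leukocyte barcodes held the marker transcripts. Thinned at random to 2500 UMIs per barcode, 3.18% of 597 endothelial barcodes on day 0 held a Myoc UMI, 1.51% held Scara5, 0.670% held Inmt and 2.01% held Abca8a. Of 60 leukocyte barcodes on day 0, 2 held Myoc and 3 held Abca8a, and of 958 at day 7, 2 held Myoc and 3 held Scara5. Gsn was less specific, because 54.3% of the same endothelial barcodes held it, compared with 100% of 218 members. At day 7, 13.9% of 527 endothelial barcodes held Gsn and 0.190% held Myoc, compared with 100% and 57.9% of 19 members.

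Members at day 7 met the rule more narrowly than those at day 0. Exactly 2 of the 4 markers were present in 46.2% of the 353 day 0 members, 86.2% of the 65 day 7 members, 48.8% of the 125 day 21 members and 74.3% of the 35 p7N3 members. Myoc was found in 65.2% of the day 0 members and 40.0% of the day 7 members, Inmt in 49.0% and 9.23%. Scara5 was found in 75.9% and 86.2%, and Abca8a in 76.8% and 80.0%, so the day 7 members were mostly Scara5 and Abca8a barcodes, with 56.9% holding this pair and no other marker. At 2500 UMIs the gap was smaller, with exactly 2 markers in 57.8% of 218 day 0 members and 68.4% of 19 day 7 members, and this pair alone in 36.8% of the latter. Just inside the threshold, the 163 day 0 barcodes with 2 markers had 34463 CPM of Gsn, and just outside, the 82 with 1 marker had 32380 CPM. At day 7 the 56 barcodes with 2 markers had 2601 CPM and the 168 with 1 marker had 840 CPM. At day 21 the 61 barcodes with 2 markers had 11189 CPM and the 83 with 1 marker had 3308 CPM. These are levels over all barcodes of a day. In day 0 replicate 2 alone, the 10 barcodes with 1 marker had 20556 CPM and the 24 with 2 markers had 33917 CPM. Pooled over libraries, members further inside the threshold had more Gsn at the later times. The 8 day 7 barcodes with 3 markers had 8078 CPM. The 49 and 15 day 21 barcodes with 3 and 4 had 23499 and 38035 CPM, compared with 33508 CPM in the 46 day 0 barcodes with 4. By library, Gsn at 3 markers against 2 was higher in day 7 replicates 3 (21585 against 1706 CPM) and 4 (2770 against 533 CPM). It was lower in day 7 replicates 1 (1606 against 3086 CPM) and 2 (1790 against 4300 CPM). At 2500 UMIs the day 21 barcodes with 2, 3 and 4 markers had 20962, 22285 and 8852 CPM. Postn, an activation gene, was mostly lower further inside the threshold when pooled at full depth. At day 7 it stood at 2962 CPM with 2 markers, 758 CPM with 3 and 2129 CPM in the 1 barcode with 4. At day 21 it stood at 1173, 993 and 72.9 CPM with 2, 3 and 4 markers, and at 58.6 CPM in the day 0 barcodes with 4. By library, Postn at 3 markers against 2 was higher in day 21 replicates 2 (1306 against 1261 CPM) and 4 (1477 against 1218 CPM). It was lower in day 21 replicates 1 and 3. The class levels of Gsn and Postn given below are thus mainly those of barcodes with 2 or 3 markers.

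Member numbers per library were 100, 45, 130 and 78 on day 0, 27, 10, 25 and 3 at day 7, 53, 25, 25 and 22 at day 21, and 6, 12, 3 and 14 in p7N3. The same rule found 15 barcodes in the 3 day 3 libraries, which were not used further. Median UMIs per member were 5015 on day 0, 8094 at day 7, 6370 at day 21 and 6617 in p7N3. The libraries themselves held between 3019467 UMIs in 571 barcodes (day 0 replicate 2) and 39870492 UMIs in 3578 barcodes (day 7 replicate 2). A library stood apart in day 7 replicate 4, whose 3 members held 103390 CPM of erythroid transcripts, compared with 212 to 421 CPM in the other day 7 libraries. Gene tests used libraries with at least 10 members, which left out day 7 replicate 4 and p7N3 replicates 1 and 3. No pair of libraries shared many barcode sequences, and the most was 22. Day 7 replicates 3 and 4 shared this number, where 14.4 would be shared at random. So did day 7 replicate 3 and p7N3 replicate 4, where 12.6 would be.

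Myoc Scara5 fibroblasts made up a large share of the Pdgfra barcodes on day 0, a very small share at day 7 and an intermediate share at day 21. Because a rule on UMIs depends on depth, through the markers it demands and the Pi16 and Lrrc15 transcripts it bars, shares were read after thinning each barcode to 2500 UMIs. The day 0 libraries held 33.7%, 37.5%, 41.3% and 31.3% members among their Pdgfra barcodes. The day 7 libraries held 1.72%, 2.13%, 1.19% and 0%, the last being 0 of 304 barcodes, which allows a share of up to 0.987%. The day 21 libraries held 11.7%, 14.4%, 9.16% and 3.66%. All 4 day 21 libraries lay above all 4 day 7 libraries and below all 4 day 0 libraries. For single libraries the 95% Wilson intervals ran, for example, from 34.7% to 48.2% for day 0 replicate 3 and from 1.94% to 6.81% for day 21 replicate 4, and cover counting error only.

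The mean share was 36.0% ± 4.37 on day 0, 1.26% ± 0.925 at day 7 and 9.73% ± 4.58 at day 21 (SD, n = 4). The day 7 share was lower than that of day 0 by 34.7 percentage points (difference -34.7, exact permutation test, two-sided, p = 0.0286, adjusted p = 0.0381 over 4 comparisons). The day 21 share differed from day 0 by -26.2 points and from day 7 by 8.47 points, each with the same exact p and adjusted p, and 0.0286 is the smallest p that 4 against 4 libraries allow. The p7N3 libraries held 1.41%, 1.27%, 0% and 0.800% members, where 0 of 251 barcodes allows up to 1.20%. Their mean of 0.870% ± 0.636 differed from day 7 by -0.391 points (exact permutation p = 0.543). The adjusted p of the day 7 and day 21 differences rose to between 0.0571 and 0.0762 without thinning, with differences of -34.5, -29.2 and 5.37 points. Leaving out any 1 day 7 library gave an adjusted p of 0.0571 against day 0 and of 0.0762 for day 21 against day 7. A lower share can come from fewer such cells or from less marker RNA in the same cells. It can also come from a gain of the barred Pi16 or Lrrc15 RNA, or from more Pdgfra barcodes of other kinds. After thinning, Pdgfra barcodes averaged 150.75 per library on day 0 and 371.25 at day 7. These sources cannot be told apart here.

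**Figure D1:**
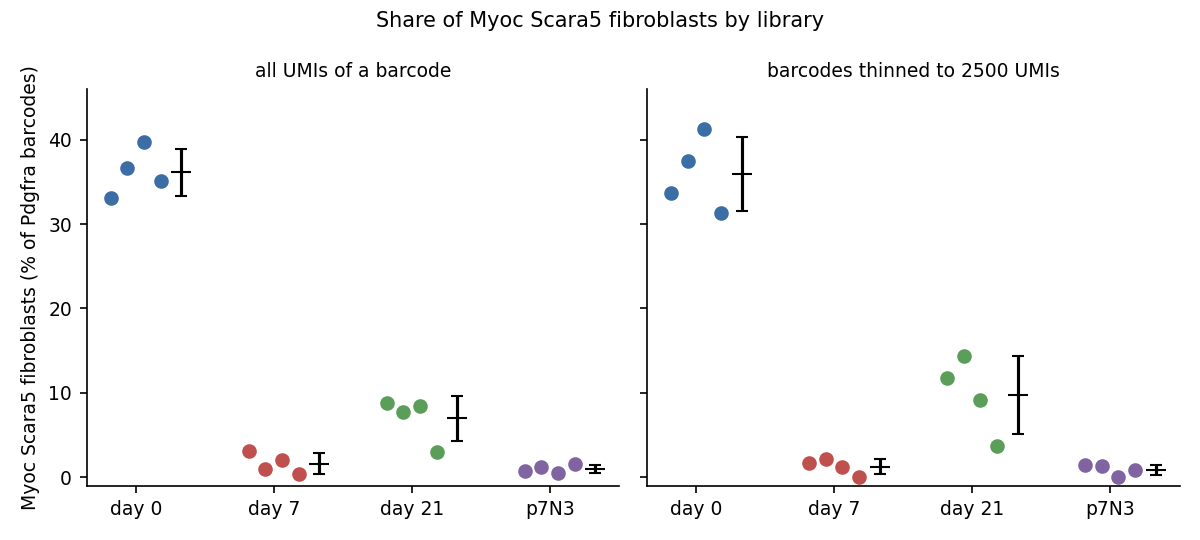
Share of Myoc Scara5 fibroblasts among Pdgfra barcodes (%, y axis) in each library of day 0, day 7, day 21 and p7N3 (x axis), at full depth and after thinning each barcode to 2500 UMIs. Points are libraries, and bars beside them give the group mean ± SD. After thinning, the day 0 libraries lie between 31.3% and 41.3%, the day 21 libraries between 3.66% and 14.4% and the day 7 and p7N3 libraries at 2.13% or less.

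Pdgfra barcodes with marker transcripts were also counted without the demand on Pi16 and Lrrc15. Counted whatever their Pi16 and Lrrc15 UMIs, Pdgfra barcodes with at least 2 of the 4 markers made up 60.7% ± 2.88 on day 0, 5.20% ± 3.47 at day 7, 23.2% ± 9.76 at day 21 and 3.73% ± 0.679 in p7N3 after thinning (SD, n = 4). The day 7 share differed from day 0 by -55.5 points (exact permutation test, two-sided, adjusted p = 0.0571 over 4 comparisons). Of 238 Pi16 fibroblasts on day 0 and 413 at day 7, Myoc was found in 61.3% and 14.0%, Scara5 in 58.8% and 39.5%, Inmt in 18.1% and 3.39% and Abca8a in 50.8% and 12.6%. At the same depth, Pi16 fibroblasts made up 38.9% ± 3.74 of the Pdgfra barcodes on day 0, 27.0% ± 7.80 at day 7 and 46.4% ± 6.97 at day 21, and Lrrc15 fibroblasts 23.0% ± 6.02 at day 7 and 12.1% ± 5.57 at day 21. Without thinning the Pi16 shares were 49.8% ± 2.86, 25.6% ± 9.95 and 39.7% ± 6.70, so the order of day 0 and day 21 turned with the depth. The Lrrc15 shares without thinning were 0.0828% ± 0.166, 56.5% ± 11.6 and 42.1% ± 8.73.

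**Figure D2:**
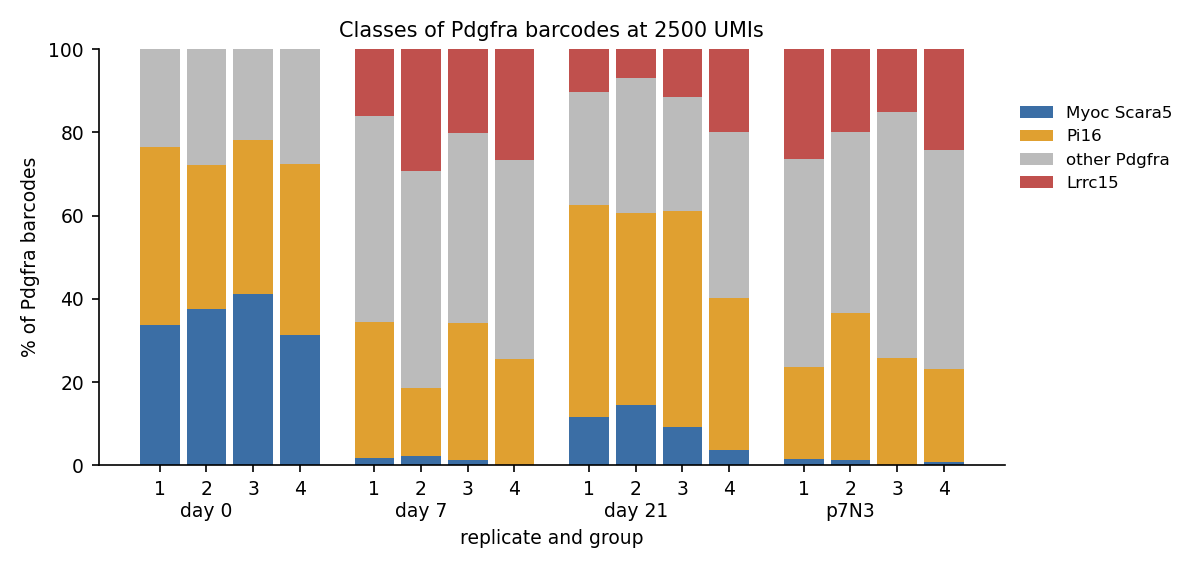
Makeup of the Pdgfra barcodes of each library after thinning to 2500 UMIs (y axis, % of Pdgfra barcodes), divided into Myoc Scara5, Pi16, Lrrc15 and other Pdgfra barcodes. Bars are libraries, numbered by replicate within each group. The Myoc Scara5 part is between 31.3% and 41.3% in the day 0 libraries and at most 2.13% in the day 7 libraries, where the Lrrc15 part averages 23.0%.

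Myoc Scara5 fibroblasts of day 7 held far less Gsn than those of day 0 and more transcripts of matrix activation genes. From here on, levels are CPM of the summed member UMIs of a library after TMM scaling, and tests are edgeR quasi-likelihood tests over 3766 genes with Benjamini-Hochberg adjustment. Gsn (chr2:35256380-35307892, plus strand) was at 45865, 43101, 38601 and 34113 CPM on day 0 and at 3523, 4704 and 3736 CPM at day 7. The groups did not overlap, and the log2 fold change was -3.35 ± 0.20 (SE, adjusted p = 3.98e-09), a 10.2-fold lower level. In all, 614 genes changed (16.3%), 324 higher (8.60% of the genes tested) and 290 lower (7.70%), and the CPM of the 2 groups did not overlap for 562 of them and for 29.4% of all genes tested, called or not. Without day 7 replicate 1 the count was 387, and 258 genes were called when each library needed at least 10 UMIs of a gene. With members chosen after thinning and at least 3 per library, which tested fewer cells, 36 genes were called, and Gsn (-1.86), Cthrc1 (4.82) and Postn (2.98) remained among them.

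Most of the tested genes of the activated fibroblast list rose. Of 26 tested, 15 rose and 1 fell (61.5% called, compared with 16.3% of all genes), with a median log2 fold change of 1.24 compared with 0.0033 over the 3766 genes tested. Postn (chr3:54361109-54391037, plus strand), which encodes the matricellular protein periostin, was at 195, 242, 187 and 248 CPM on day 0 and at 3432, 3153 and 3047 CPM at day 7, a log2 fold change of 3.89 ± 0.31 (adjusted p = 1.76e-07). Cthrc1 (chr15:39076932-39087121, plus strand), a secreted collagen-associated protein, was at 7.42, 45.7, 5.51 and 19.8 CPM on day 0 and at 933, 1552 and 1140 CPM at day 7 (6.23 ± 0.54, adjusted p = 4.72e-07). In both genes the lowest day 7 library lay far above the highest day 0 library. Ptn (chr6:36714929-36810220, minus strand), which encodes the growth factor pleiotrophin, went from a range of 50.8 to 85.3 CPM to a range of 1123 to 2208 CPM (4.43 ± 0.56), and Mdk, its paralogue midkine, rose by 3.08 ± 0.30. Timp1, an inhibitor of metalloproteinases, rose by 3.29 ± 0.40, Adam12, a membrane protease, by 3.10 ± 0.41 and the transcription factor Runx1 by 2.70 ± 0.32. Smaller rises were measured for Lox, which crosslinks collagen, at 1.61 ± 0.29, for fibronectin (Fn1) at 1.20 ± 0.23 and for Fstl1, a secreted glycoprotein, at 0.84 ± 0.16. The member that fell was S100a6, a calcium-binding protein (-0.73 ± 0.14). Leaving out day 7 replicate 1 ended the call for Thbs2 (log2 fold change 0.98, adjusted p = 0.0737), and the other members named here kept theirs without each library in turn.

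Steady-state fibroblast genes fell more often than they rose, with 11 lower and 2 higher of 31 tested (41.9% called, compared with 16.3% of all genes) and a median of -0.59. Igfbp6, a binding protein that favours IGF2, was at 2939, 3629, 3102 and 2679 CPM on day 0 and at 642, 637 and 1152 CPM at day 7 (-1.91 ± 0.21, adjusted p = 1.02e-05). Ccl11, the eosinophil chemokine eotaxin, fell by 1.55 on the log2 scale, Podn, a small leucine-rich proteoglycan, by 1.53, and Clec3b, the plasminogen-binding protein tetranectin, by 1.20. Each of these lay lower in all 3 day 7 libraries than in all 4 day 0 libraries. Mgp (chr6:136872435-136875823, minus strand), the matrix Gla protein that inhibits calcification, was called at -1.13 ± 0.32 (adjusted p = 0.0202), but its groups overlapped, since day 7 replicate 3 had 1105 CPM and day 0 replicate 3 had 1013 CPM. The Mgp call was lost without day 0 replicate 2 (-0.90), day 7 replicate 1 (-0.89) or day 7 replicate 2 (-0.96). Calls for Cd34, Cygb, Efemp1, Ogn, Penk and Ebf2 in this list were also lost without single libraries, and Cygb turned to 0.14 with members chosen after thinning and at least 3 per library. Igfbp4, a binding protein of insulin-like growth factors, went the other way, from 961, 794, 936 and 934 CPM to 5732, 6599 and 4229 CPM (2.60 ± 0.17, adjusted p = 9.14e-09).

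**Figure D3:**
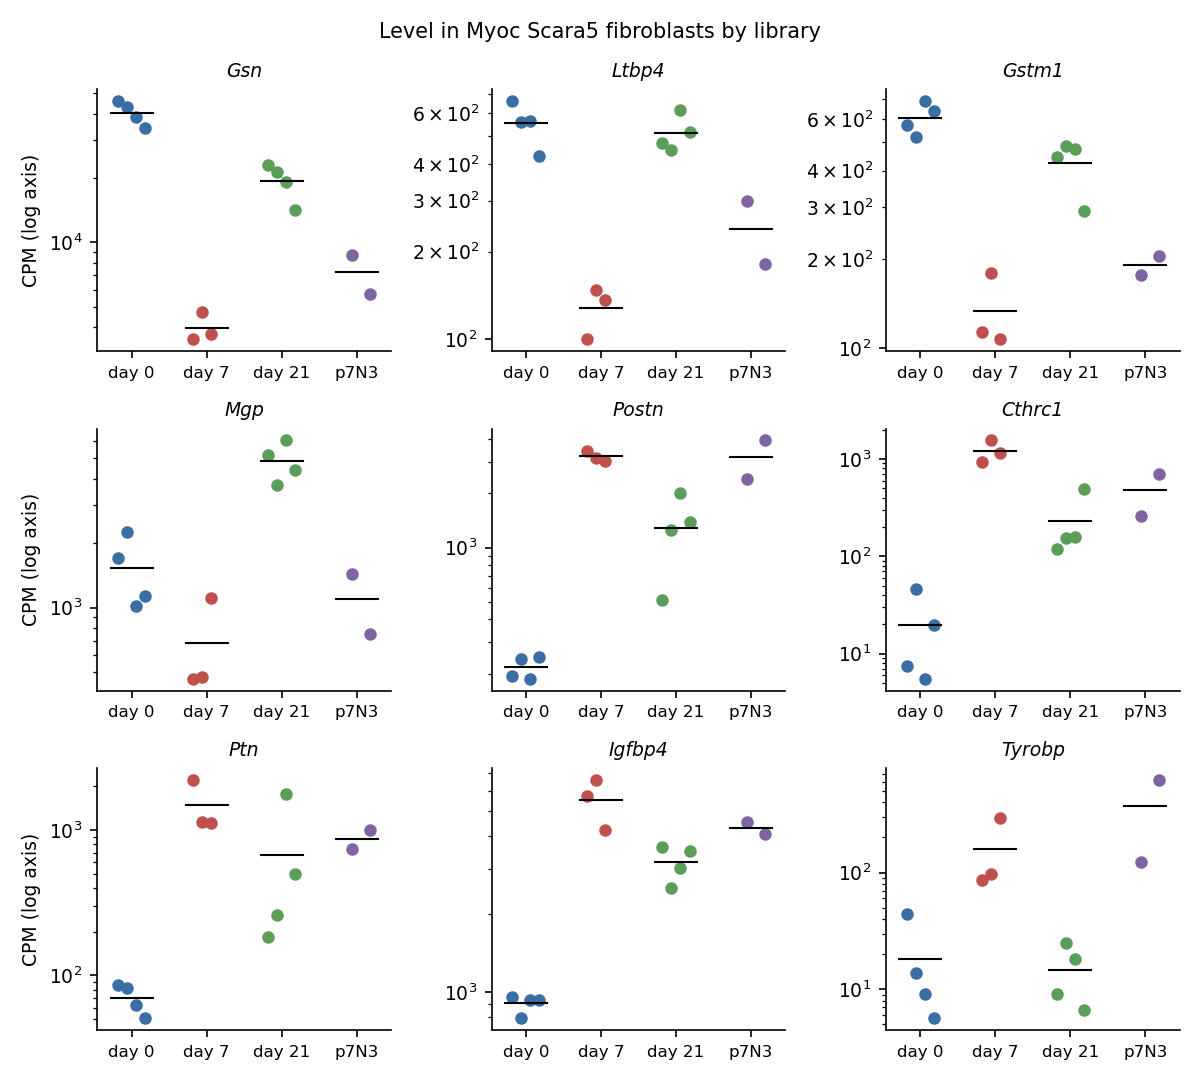
Levels of 9 genes in Myoc Scara5 fibroblasts (CPM after TMM scaling, log axis) in each library with at least 10 members, by group. Points are libraries and lines are group means. Gsn, Ltbp4 and Gstm1 have their lowest mean at day 7, Postn, Cthrc1, Ptn and Igfbp4 are lowest on day 0, Mgp is highest at day 21 with 3757 to 6047 CPM, and Tyrobp, a myeloid gene, is higher in all day 7 and p7N3 libraries than in the others.

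In the basement membrane list, 7 of 14 fell and 2 rose, with a median of -0.85, and 64.3% of the list was called compared with 16.3% of all genes tested. Lamb2, a laminin chain, was at 443, 429, 333 and 347 CPM on day 0 and at 117, 65.3 and 65.3 CPM at day 7 (-2.12 ± 0.26, adjusted p = 1.95e-05), Lama2 changed by -1.97 ± 0.33, and the type IV collagen chains Col4a1 and Col4a2 by -1.47 ± 0.30 and -1.35 ± 0.23. Sparcl1, a secreted relative of osteonectin, changed by -1.75 ± 0.31, and Col18a1 rose by 1.86 ± 0.32. The calls for Nid1 and Lamb1 were lost without single libraries, Lamb1 without day 7 replicate 1. Among fibrillar collagens and crosslinking enzymes, 5 of 20 rose and 2 fell, with a median of 0.32. Col12a1 rose by 2.78 ± 0.30 and Col1a1 by 0.84 ± 0.21, from 9350, 12390, 10574 and 9412 CPM to 18440, 18376 and 19263 CPM. Col3a1 differed by 0.44 ± 0.19 (adjusted p = 0.132). Of the proteoglycans, Dcn changed by -1.04 ± 0.15, from 15736, 17074, 18766 and 17980 CPM to 9107, 7775 and 8541 CPM, while Lum, lumican, rose by 1.26 ± 0.19. Thus the 2 related proteoglycans moved in opposite directions in the summed counts of the members.

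Among signalling genes, the share called was 18.2% in the TGF beta list, 38.5% in the BMP list and 40% in the Wnt and insulin-like growth factor lists, compared with 16.3% of all genes tested. In the TGF beta list of 22 tested, 2 rose and 2 fell, with a median of -0.14. The genes that fell were Ltbp4 and Tgfbi, a matrix protein induced by TGF beta, the latter at -1.23 ± 0.22 (adjusted p = 0.000745), while the calls of the risers Cyr61 and Ltbp3 were lost without single libraries and Cyr61 turned to -0.39 with members chosen after thinning and at least 3 per library. Ltbp4 (chr7:27305136-27337692, minus strand), which holds latent TGF beta in the matrix, was counted by its identifier because its symbol occurs more than once in the files. It was at 662, 562, 564 and 429 CPM on day 0 and at 99.8, 147 and 137 CPM at day 7 (-2.17 ± 0.25, adjusted p = 1.05e-05). The BMP list, whose ligands drive bone formation, had 4 lower and 1 higher of 13. Id3, a target of BMP signalling, went from 757, 1045, 866 and 906 CPM to 443, 474 and 469 CPM (-0.95 ± 0.23), and the ligand Bmp4 changed by -1.79 ± 0.44, a call lost without day 7 replicate 1 (-1.19). The calls for Gdf10 and Id1 were lost without several single libraries, and Gdf10 turned to 0.13 with members chosen after thinning. In the Wnt list 4 of 10 rose, among them the modulators Sfrp2 (3.95 ± 0.53, from 73.0 to 221 CPM on day 0 to 1449 to 3414 CPM at day 7) and Sfrp1 (1.13 ± 0.24). In the insulin-like growth factor list 3 of 10 rose and 1 fell. Igf1 itself was at 777, 1128, 1119 and 1225 CPM on day 0 and at 3354, 2842 and 2679 CPM at day 7 (1.48 ± 0.17, adjusted p = 1.31e-05). Igf1, Igfbp4 and Igfbp6 thus changed together, the ligand and 1 binding protein upward and the other binding protein downward.

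Among inflammatory mediators, 8 of 28 rose and 2 fell, a share called of 35.7% compared with 16.3% of all genes tested. Cxcl12, a chemokine that retains haematopoietic and progenitor cells, went from 1135, 803, 866 and 1025 CPM to 3015, 1519 and 2524 CPM (1.31 ± 0.22, adjusted p = 0.000354). Ptx3, a soluble pattern recognition protein, rose by 2.79 ± 0.47 and the adhesion receptor Vcam1 by 2.07 ± 0.35. The neutrophil chemokine Cxcl5 was at 0, 0, 5.51 and 14.1 CPM on day 0 and at 152, 229 and 71.3 CPM at day 7 (4.66 ± 0.76). Ccl8, which attracts monocytes, was at 78.1, 147 and 1889 CPM at day 7 and between 9.13 and 28.2 CPM on day 0 (5.23 ± 0.75), so day 7 replicate 3 carried most of it. S100a8 and S100a9, the calprotectin subunits known from neutrophils, were highest in day 7 replicate 2, with 784 and 327 CPM, compared with 104 and 82.4 CPM in replicate 1 and 41.6 and 53.5 CPM in replicate 3. The rises of S100a8 (5.81 ± 0.94) and S100a9 (4.33 ± 0.86) were thus uneven across libraries. The day 0 members held only 6 UMIs of S100a8, 9 of S100a9 and 8 of Cxcl5. Ccl7, Cxcl2, Il33 and Csf1 in this list lost their calls without single libraries. Interferon-stimulated genes counted 1 lower of 11 (Irf1, -1.22 ± 0.28) and complement genes 1 higher and 2 lower of 10, shares of 9.09% and 30%.

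Transcripts of leukocytes moved with day 7. Of 7 macrophage markers tested, 5 rose (Cd74, Ctss, Fcer1g, Lyz2 and Tyrobp), with a median of 3.00 (71.4% called, compared with 16.3% of all genes tested). The 14 markers of this list summed to 649, 209, 116 and 119 CPM in the day 0 members and to 916, 566 and 3387 CPM in the day 7 members of replicates 1 to 3. Lyz2 led the list in replicates 1 and 3, with 265 and 1163 CPM, and Tyrobp in replicate 2, with 87.0 CPM. Of the 14 markers, 14, 12 and 13 had a UMI in these day 7 libraries, and the defining marker Adgre1 had none in day 7 replicates 2 and 3 or in day 0 replicates 3 and 4. For comparison, leukocyte barcodes held 9761 CPM of Lyz2 on day 0. The calls of Lyz2 (1.73, adjusted p = 0.202), Cd74 (0.92), Ctss (2.41) and Tyrobp (2.12, adjusted p = 0.0621) were lost without day 7 replicate 3. Members with no Ptprc UMI gave 610 called genes, and removing the 3.9% of barcodes with the highest doublet scores gave 619. The part of these transcripts in the inflammatory genes above was not tested.

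The other genes named for their large falls were Procr, Hmcn2, Cadm3, Aqp1, Tsc22d3, Ptprb and Lims2. Procr, the endothelial protein C receptor, was at 221, 142, 414 and 421 CPM on day 0 and at 52.1, 32.7 and 17.8 CPM at day 7 (-3.05 ± 0.48, adjusted p = 0.000229). Hmcn2, the extracellular protein hemicentin-2, changed by -3.28 ± 0.47, Cadm3, a cell adhesion molecule, by -3.01 ± 0.57, and Aqp1, a water channel, by -3.11 ± 0.84, although the Aqp1 call was lost without day 7 replicate 3 (-2.47, adjusted p = 0.0867). Tsc22d3, a glucocorticoid-induced regulator, was at 709, 507, 509 and 370 CPM on day 0 and at 60.7, 81.7 and 89.1 CPM at day 7 (-2.80 ± 0.33). Cadm3 had 6 member UMIs at day 7 and Aqp1 had 7. For 3 genes a group had even fewer UMIs, so that no fold is given. Ptprb, a tyrosine phosphatase of vascular endothelium, had 191 member UMIs on day 0 and 1 at day 7 (adjusted p = 0.000861), and Lims2, a focal adhesion adaptor, had 182 and 2 (adjusted p = 1.05e-05). Agtr2, the type 2 receptor for angiotensin II, had 2 UMIs on day 0 and 65 at day 7, at 161, 16.3 and 160 CPM (adjusted p = 1.47e-05). The endothelial markers summed to a median of 118 CPM in the day 0 members and 31.9 CPM in the day 7 members, and none of them had enough UMIs to be tested. Their part in the falls of Procr, Aqp1 and Ptprb was not tested. The imprinted transcript H19 rose from between 14.7 and 115 CPM to 2104, 2483 and 1319 CPM (4.81 ± 0.81), and Mest, another imprinted gene, rose by 4.20 ± 0.45.

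The immediate early and stress list had 2 higher and 4 lower of 24, a share called of 25% compared with 16.3% of all genes tested, and its fallers Ier2, Junb, Hspa1a and Nr4a1 each lost their call without day 7 replicate 1. Of 24 detoxification and lipid handling genes, 5 rose and 5 fell (41.7% called). Gstm1, a glutathione transferase, was at 571, 520, 691 and 641 CPM on day 0 and at 113, 180 and 107 CPM at day 7 (-2.29 ± 0.24, adjusted p = 7.25e-06), and the fatty acid binding protein Fabp4 changed by -2.32 ± 0.39. Cell cycle genes counted 2 higher of 4, Ccnd1 and Cdkn1c, whose calls were lost without day 7 replicate 1, and the CD47 axis 1 of 5, the CD47 ligand Thbs2. Cd47 itself differed by -0.15 ± 0.18 (adjusted p = 0.638). Of 4 cartilage and bone genes with enough UMIs, Sox9, the cartilage regulator, rose by 1.5 ± 0.28, from 31.5 to 54.8 CPM to 89.1 to 121 CPM, and Prg4, the joint lubricant lubricin, fell by 2.10, a call lost without day 0 replicate 1 or any single day 7 library. Haemoglobin genes Hba-a1, Hba-a2 and Hbb-bs fell in members whose erythroid list summed to 520 to 938 CPM on day 0 and 212 to 421 CPM at day 7, and turned to rises of 5.90, 6.18 and 5.19 when day 7 replicate 4 was let in.

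The promoters of the fallers were read for an AP-1 element, the letters TGANTCA that dimers of Fos and Jun proteins bind. The word reads the same on both strands. It stood in 2217 of 32851 RefSeq windows of 250 bases before a gene's start (6.75%, build GRCm38.p6). Among the genes named at day 7, 6 of the 8 lower genes had a window, of which 3 held it, and 5 of the 8 higher genes had a window, of which 0 held it. The 3 windows are shown 5′ to 3′ on the strand of the gene, with the element in capitals, because these genes fell together. They were picked after their values were seen, and a match is a description of letters and not of binding.
Cadm3, chr1:173367696-173367945, minus strand, element beginning 186 bases before the start: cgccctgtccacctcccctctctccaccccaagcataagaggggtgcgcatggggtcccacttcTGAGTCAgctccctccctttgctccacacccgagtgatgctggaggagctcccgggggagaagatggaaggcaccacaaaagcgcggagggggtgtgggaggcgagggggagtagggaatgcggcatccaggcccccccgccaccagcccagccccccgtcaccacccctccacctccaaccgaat
Hmcn2, chr2:31314082-31314331, plus strand, element beginning 101 bases before the start: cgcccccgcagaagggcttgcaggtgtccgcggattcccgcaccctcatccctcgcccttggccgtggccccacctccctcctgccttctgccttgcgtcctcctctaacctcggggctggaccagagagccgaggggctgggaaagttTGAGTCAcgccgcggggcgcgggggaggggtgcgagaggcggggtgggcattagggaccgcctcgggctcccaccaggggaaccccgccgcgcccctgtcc
Procr, chr2:155750967-155751216, plus strand, element beginning 154 bases before the start: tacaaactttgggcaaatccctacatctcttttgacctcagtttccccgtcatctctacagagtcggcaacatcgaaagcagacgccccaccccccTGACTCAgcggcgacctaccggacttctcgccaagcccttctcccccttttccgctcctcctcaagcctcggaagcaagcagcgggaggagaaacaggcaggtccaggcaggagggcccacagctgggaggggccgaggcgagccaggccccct

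At day 21 the members lay between the earlier groups for many genes and near day 0 for others. Against day 0, 137 genes changed (3.64%), 79 higher (2.10% of 3766) and 58 lower (1.54%), of which 119 did not overlap between groups, where 416 of the 3766 genes tested, called or not, had no overlap. Against day 7, 169 genes changed (4.49%), 94 higher (2.50%) and 75 lower (1.99%), of which 154 did not overlap, where 14.8% of all genes tested had no overlap. The comparisons share libraries, so values are given side by side. Gsn was at 22896, 21358, 19062 and 14114 CPM at day 21, a log2 fold change of 2.29 ± 0.19 against day 7 (adjusted p = 1.28e-06) and of -1.06 ± 0.17 against day 0 (adjusted p = 0.00111). All 4 day 21 libraries lay above the day 7 libraries and below the day 0 libraries. The counts of 137 and 169 fell to 75 without day 21 replicate 4 and to 75 without day 7 replicate 1, respectively, and to 36 and 3 with members chosen after thinning and at least 3 per library. Under that last choice Gsn was no longer called against either group (1.03, adjusted p = 0.352, against day 7, and -0.83, adjusted p = 0.30, against day 0).

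Genes near their day 0 level at day 21 included Ltbp4, with 475, 448, 619 and 516 CPM. It differed by -0.11 ± 0.18 from day 0 (adjusted p = 0.841) and by 2.06 ± 0.25 from day 7 (adjusted p = 0.000141). Dcn, at 18010, 21059, 14592 and 18755 CPM, differed by 0.06 ± 0.14 from day 0 and by 1.09 ± 0.15 from day 7. Both genes overlapped with the day 0 libraries and not with the day 7 libraries. Sparcl1 (1.80 ± 0.31), Gstm1 (1.78 ± 0.25), Ramp1, a co-receptor for calcitonin gene-related peptide (2.05 ± 0.35), Tsc22d3 (2.14 ± 0.34) and Vwa1, a matrix protein (2.64 ± 0.51), were higher at day 21 than at day 7 in all libraries, and their differences from day 0 did not pass the test. The tissue factor gene F3 (2.19 ± 0.46) and Hmcn2 (2.44 ± 0.52) were also higher than at day 7, calls lost without day 7 replicate 1 (adjusted p = 0.0839 and 0.113). In the list of basement membrane genes 5 of 14 were higher than at day 7 and none lower (35.7% called, compared with 4.49% of all genes), and 1, Col18a1, was higher than on day 0. The steady-state list had 7 higher and 2 lower of 31 against day 7 (29% called), and 3 higher and 1 lower against day 0 (12.9% called, compared with 3.64% of all genes).

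Of the 79 genes above day 0 at day 21, 7 were of the activated list (7 of 26 tested, 26.9%, compared with 3.64% of all genes called), in which no gene was lower. Postn was at 512, 1250, 2008 and 1397 CPM in all members (72.9 CPM over the 15 with all 4 markers), a log2 fold change of 2.56 ± 0.29 against day 0 (adjusted p = 8.28e-05) and of -1.33 ± 0.29 against day 7 (adjusted p = 0.0118, and 0.0551 without day 7 replicate 1). Cthrc1 was at 119, 155, 158 and 497 CPM (3.82 ± 0.56 against day 0 and -2.41 ± 0.43 against day 7). The highest Postn and Cthrc1 values at day 21 lay below the lowest at day 7, and their lowest above the highest on day 0. Ptn was at 183, 261, 1759 and 497 CPM (3.24 ± 0.54 against day 0), and overlapped with day 7 through replicate 3 (-1.19 ± 0.50, adjusted p = 0.212). Runx1 was 2.33 ± 0.29 above day 0, and Igfbp4, at 3651, 2519, 3008 and 3509 CPM, was 1.81 ± 0.16 above day 0 and differed by -0.79 ± 0.17 from day 7 (adjusted p = 0.0531 without day 7 replicate 2, and a turn to 0.40 with members chosen after thinning and at least 3 per library). Tnc, the matricellular protein tenascin C, was at 6.10, 6.22, 6.07 and 26.5 CPM at day 21, from 8 UMIs. It lay near day 0 (-0.07 ± 0.76) and below day 7 (-3.63 ± 0.62, adjusted p = 0.0945 without day 7 replicate 1). Against day 7, 7 genes of the activated list were lower and 1 higher (30.8% called, compared with 4.49% of all genes).

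**Figure D4:**
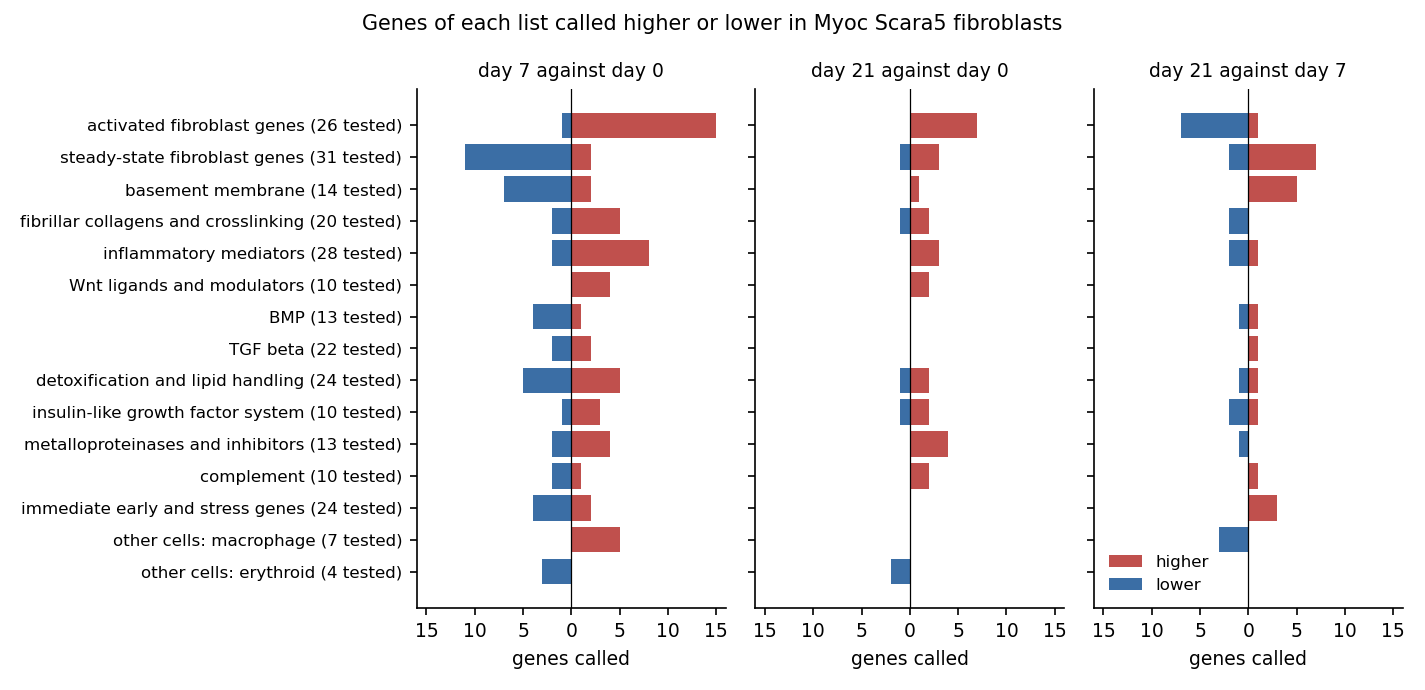
Number of genes called higher or lower (x axis, edgeR, adjusted p under 0.05) in each gene list (y axis) in Myoc Scara5 fibroblasts, for day 7 against day 0, day 21 against day 0 and day 21 against day 7. Bars to the right are higher and bars to the left lower. The activated list has 15 higher and 1 lower at day 7 against day 0 and 1 higher and 7 lower at day 21 against day 7, and the steady-state list 2 and 11, then 7 and 2.

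Other genes stood above day 0 at day 21, and Mgp stood above both earlier groups. Mgp was at 5148, 3757, 6047 and 4376 CPM, compared with 1013 to 2251 CPM on day 0 and 464 to 1105 CPM at day 7. Its log2 fold change was 1.67 ± 0.28 against day 0 (adjusted p = 0.00194) and 2.80 ± 0.34 against day 7 (adjusted p = 0.000141). Hp, the haemoglobin scavenger haptoglobin, was at 85.3, 56.0, 170 and 616 CPM at day 21 and between 8.47 and 16.7 CPM on day 0 (4.12 ± 0.66), and overlapped with day 7. Mmp3 and Mmp14, matrix metalloproteinases, were 1.94 ± 0.40 and 0.98 ± 0.19 above day 0, within a list in which 4 of 13 were higher and none lower (30.8% called, compared with 3.64% of all genes). The chemokine Cxcl12 (1.59 ± 0.20) and the receptor Vcam1 (1.71 ± 0.33) stayed above day 0. Pltp, which transfers phospholipids between lipoproteins (2.30 ± 0.46), and Sfrp2 (2.76 ± 0.50) were also above day 0, and Mest (2.20 ± 0.47) lost its call without day 0 replicate 3 or day 21 replicate 4. Apod reached 2844, 7072, 2717 and 10950 CPM (1.48 ± 0.36 against day 0, adjusted p = 0.0241), but its groups overlapped and the call was lost without any of 4 libraries (day 0 replicates 1 and 3, day 21 replicates 2 and 4), with values between 0.98 and 1.42.

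Genes below day 0 at day 21 included Procr, at 110, 74.6, 54.6 and 33.1 CPM (-2.04 ± 0.35), Ptgis, the prostacyclin synthase, at 12.2, 62.2, 24.3 and 13.2 CPM (-2.02 ± 0.40), and Cdkn1a, the cell cycle inhibitor p21, at 128, 62.2, 115 and 13.2 CPM (-1.89 ± 0.34). At day 7, Procr and Ptgis were also called lower than on day 0 (Ptgis at -2.12 ± 0.49), while Cdkn1a differed by -0.97 ± 0.36 (adjusted p = 0.0733). Igfbp6, at 1847, 1524, 1353 and 1264 CPM, was below day 0 (-1.04 ± 0.18) and above day 7 (0.87 ± 0.21, a call lost without day 7 replicates 1 or 2). Cadm3 (-1.88 ± 0.38), Plac9b (-1.91 ± 0.34) and the predicted gene Gm8797 (-1.85 ± 0.33), all called lower at day 7 as well, completed this set, with Ptprb (-2.46 ± 0.52, adjusted p = 0.0514 without day 21 replicate 1) and the haemoglobin gene Hbb-bs (-1.92 ± 0.27). Erythroid markers summed to 141 to 272 CPM in the day 21 members and endothelial markers to a median of 25.7 CPM, compared with 118 CPM on day 0. Their part in Hbb-bs, Procr and Ptprb was not tested.

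Leukocyte transcripts were lower again at day 21. Macrophage markers summed to 160, 595, 351 and 106 CPM. No gene of the 7 tested passed the test against day 0, where 3.64% of all genes tested were called. Against day 7, 3 of the 7 were lower, where 4.49% of all genes tested were called. The differences against day 7 were -3.53 ± 0.74 for Tyrobp and -3.11 ± 0.64 for Fcer1g, which became -2.68 (adjusted p = 0.0989) and -2.05 (adjusted p = 0.124) without day 7 replicate 3, as Cd74 became -1.49 (adjusted p = 0.211). Ccl8 (-3.65 ± 0.72) became -0.71 (adjusted p = 0.442) without that library, S100a8 (-4.84 ± 0.98) became -3.23 (adjusted p = 0.0505) without day 7 replicate 2, and Cxcl5 (-3.71 ± 0.79) became -3.60 (adjusted p = 0.0753) without day 7 replicate 1. H19 (-2.94 ± 0.75) and S100a9 (-3.08 ± 0.86) lost their calls without any of 5 libraries each. The day 21 members held only 6 UMIs of S100a8, 8 of Cxcl5 and 11 of S100a9. At day 21 the medians of the TGF beta and BMP lists against day 0 were -0.07 and -0.04.

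The p7N3 comparison asked whether the CD47-activating peptide changed these cells at day 7, and rested on 12 and 14 members in p7N3 replicates 2 and 4. Of 3766 genes, 6 changed (0.159%), 3 higher (0.0797%) and 3 lower (0.0797%), while 421 had an unadjusted p under 0.05 and DESeq2 called 22. Mdk was at 68.0 and 126 CPM in p7N3 and at 564, 719 and 451 CPM at day 7 (-2.45 ± 0.43, adjusted p = 0.0195). Peg3, an imprinted zinc finger gene, was at 13.6 and 39.3 CPM, from 6 UMIs, compared with 338, 196 and 303 CPM (-3.29 ± 0.54, adjusted p = 0.0147). Csrp2, a LIM domain protein, was at 54.4 and 134 CPM compared with 473, 343 and 315 CPM (-1.91 ± 0.35, adjusted p = 0.0195). These 3 genes lay lower in both p7N3 libraries than in all 3 day 7 libraries, in a comparison where 24.6% of all genes tested had no overlap, but Csrp2 turned to 0.30 (adjusted p = 0.923) with members chosen after thinning and at least 3 per library, and the day 0 range was 27.4 to 70.6 CPM for Peg3 and 51.5 to 82.2 CPM for Mdk. Ccl9, a chemokine of myeloid cells, was at 258 and 519 CPM compared with 86.8, 16.3 and 77.2 CPM (2.49 ± 0.45), and Fdps, of the sterol pathway, at 231 and 126 CPM compared with 17.4, 16.3 and 35.6 CPM (2.79 ± 0.53). Acp5, the tartrate-resistant phosphatase of osteoclasts and macrophages, was at 95.2 and 1211 CPM compared with 16.3 to 35.6 CPM at day 7 (4.73 ± 0.71), and became -0.05 with high doublet scores removed and 1.84 without p7N3 replicate 4.

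All 6 calls were lost without day 7 replicate 1, where edgeR called 0 genes (301 at an unadjusted p under 0.05), and the count was 39 without p7N3 replicate 4 and 3 without p7N3 replicate 2, where Mdk, Peg3, Csrp2 and Fdps lost theirs. With a single p7N3 library left, the test takes its spread to be that of the other groups. Letting in libraries with at least 3 members, which gave 4 against 4, also left 0 called genes (302 at an unadjusted p under 0.05). Macrophage markers summed to 3323 and 1348 CPM in p7N3 replicates 2 and 4, compared with 916, 566 and 3387 CPM in day 7 replicates 1 to 3, with Lyz2 at 2186 CPM and Tyrobp at 563 CPM as the leading genes. Their part in the rises of Acp5 and Ccl9 was not tested. Gsn, at 8771 and 5765 CPM, lay above all day 7 libraries without passing the test (0.87 ± 0.21, adjusted p = 0.107). Postn, at 2407 and 3940 CPM, differed by -0.01 ± 0.35 and Cd47 by 0.53 ± 0.22 (adjusted p = 0.367). On simulated counts at this size, 67.5% of genes changed 4-fold and 10.5% of genes changed 2-fold were found in this comparison.

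Whether these changes were shared with the Pi16 fibroblasts of the same libraries was tested as an interaction, with the library as a block. Members had to hold at least 2 of the 4 markers at every time, while Pi16 fibroblasts did not. The part of this demand in the differences below was not tested. From day 0 to day 7 the change differed for 66 of 7449 genes (0.886%), 14 more positive in Myoc Scara5 fibroblasts (0.188%) and 52 more negative (0.698%). Col15a1, a collagen of the basement membrane zone, was at 416 ± 62.4 CPM on day 0 and 288 ± 138 CPM at day 7 in Myoc Scara5 fibroblasts, and at 235 ± 27.5 CPM and 56.1 ± 6.30 CPM in Pi16 fibroblasts (mean ± SD, n = 4 and 3 libraries). The difference of the changes was 1.40 ± 0.23 on the log2 scale (adjusted p = 0.00244), so Col15a1 fell more in Pi16 fibroblasts. Col8a1, a short-chain collagen, went from 52.2 ± 25.04 to 107 ± 32.1 CPM in Myoc Scara5 fibroblasts and from 137 ± 77.4 to 63.1 ± 14.5 CPM in Pi16 fibroblasts (2.25 ± 0.42). No gene but Col15a1 and Col8a1 among these 5 kept its call without each library in turn. Angptl7, a secreted angiopoietin-like protein, went from 339 ± 53.4 to 234 ± 200 CPM and from 288 ± 111 to 9.32 ± 4.89 CPM (3.73 ± 0.65), but without day 7 replicate 3 the difference was 3.06 (adjusted p = 0.162). Sparcl1 went from 388 ± 66.4 to 119 ± 22.3 CPM and from 362 ± 82.1 to 33.1 ± 14.4 CPM (1.55 ± 0.33, adjusted p = 0.172 without day 7 replicate 3), and Sbsn, suprabasin, from 28.0 ± 7.21 to 130 ± 49.3 CPM and from 169 ± 46.2 to 226 ± 23.7 CPM (1.53 ± 0.31, adjusted p = 0.0925 without day 7 replicate 1, and -0.17 against other Pdgfra barcodes in place of Pi16 fibroblasts).

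Genes whose day 7 change was more positive in Pi16 fibroblasts included Spp1, osteopontin, at 47.8 ± 40.3 and 156 ± 119 CPM in Myoc Scara5 fibroblasts and at 5.20 ± 2.88 and 430 ± 354 CPM in Pi16 fibroblasts (-4.18 ± 0.50, adjusted p = 6.70e-05). Tmem176a, a transmembrane protein, was at 57.2 ± 11.9 and 69.6 ± 36.3 CPM, and at 11.4 ± 2.93 and 124 ± 15.8 CPM (-2.95 ± 0.35). The day 0 means of both were lower in Pi16 fibroblasts, and both kept their calls without each library in turn. Hp (-3.95 ± 0.84) lost its call without any of day 0 replicates 1 to 3, and Ccl21a (-5.22 ± 0.74), a chemokine with near-identical copies whose reads may be split between them, without day 7 replicate 1 (adjusted p = 0.052). Cxcl5 was at 4.56 ± 6.19 and 133 ± 64.7 CPM in Myoc Scara5 fibroblasts and at 0 and 508 ± 125 CPM in Pi16 fibroblasts, where no day 0 library had a UMI, so that no size of the difference is given (adjusted p = 0.0280, and 0.402 without day 0 replicate 4).

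**Figure D5:**
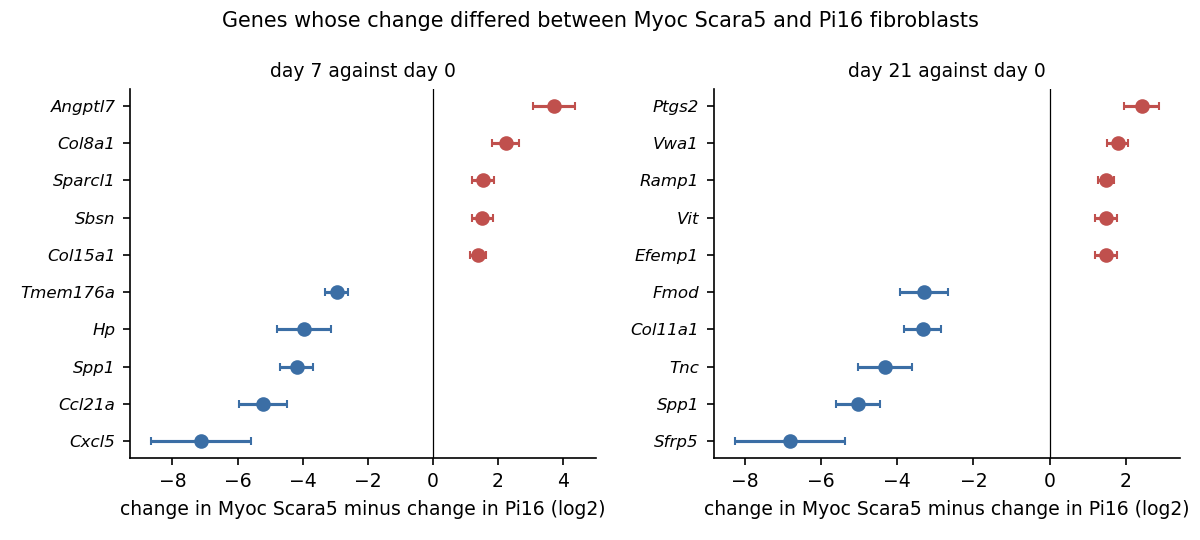
Difference between the change in Myoc Scara5 fibroblasts and the change in Pi16 fibroblasts (x axis, log2, points with SE bars) for the named genes (y axis), from day 0 to day 7 and from day 0 to day 21. Positive values mark genes whose change was more positive in Myoc Scara5 fibroblasts, such as Col15a1 at day 7 (1.40) and Ramp1 at day 21 (1.49), and negative values the reverse, such as Spp1 (-4.18 and -5.03). The value of Cxcl5 rests on Pi16 fibroblasts without a UMI on day 0, and that of Sfrp5 on Myoc Scara5 fibroblasts with a mean of 1.42 CPM at day 21.

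From day 0 to day 21 the change differed for 121 of 7269 genes (1.66%), 51 more positive in Myoc Scara5 fibroblasts (0.702%) and 70 more negative (0.963%). The 5 genes named in the first direction had lower day 21 means in Pi16 fibroblasts. Ramp1 was at 187 ± 42.3 CPM on day 0 and 160 ± 55.3 CPM at day 21 in Myoc Scara5 fibroblasts, and at 236 ± 42.9 CPM and 70.5 ± 19.4 CPM in Pi16 fibroblasts (1.49 ± 0.22, adjusted p = 0.000717, n = 4 libraries each). Vwa1 was at 84.7 ± 12.7 and 100.3 ± 26.6 CPM, and at 62.4 ± 8.69 and 22.2 ± 5.47 CPM (1.78 ± 0.28). For the matrix genes Vit, vitrin (1.48 ± 0.28), and Efemp1, fibulin-3 (1.48 ± 0.29), the day 21 means were lower in both classes. Vit went from 212 to 118 CPM in Myoc Scara5 fibroblasts and from 131 to 27.1 CPM in Pi16 fibroblasts. Efemp1 went from 130 to 92.1 CPM and from 303 to 76.6 CPM. Ptgs2, cyclooxygenase-2, was more positive by 2.41 ± 0.45, a value of 1.17 (adjusted p = 0.472) without day 21 replicate 1.

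In the other direction the named genes were Tnc, Col11a1, Spp1, Fmod and Sfrp5. Tnc was at 8.48 ± 6.09 CPM on day 0 and 10.2 ± 9.25 CPM at day 21 in Myoc Scara5 fibroblasts, and at 5.07 ± 7.03 and 105 ± 13.4 CPM in Pi16 fibroblasts (-4.32 ± 0.72, adjusted p = 0.00214). Col11a1, a fibrillar collagen of cartilage, was at 14.6 ± 6.18 and 72.0 ± 33.6 CPM, and at 8.41 ± 3.27 and 363 ± 79.7 CPM (-3.33 ± 0.49). Spp1 was at 48.0 ± 40.4 and 105 ± 96.0 CPM, and at 5.24 ± 2.89 and 523 ± 631 CPM (-5.03 ± 0.58). Tnc, Col11a1 and Spp1 kept their calls without each library in turn. Fmod, the collagen-binding proteoglycan fibromodulin, was at 131 ± 162 and 120 ± 132 CPM, and at 97.3 ± 88.4 and 694 ± 153 CPM (-3.30 ± 0.64, adjusted p = 0.071 without day 0 replicate 3). Sfrp5, a Wnt inhibitor, had 336 and 315 CPM in day 0 replicates 1 and 2 and 1.84 and 5.65 CPM in replicates 3 and 4, and a single day 21 library of Myoc Scara5 fibroblasts held it, at 6.22 CPM. Its interaction lost its call without day 0 replicate 1 (adjusted p = 0.0845) or day 21 replicate 1 (adjusted p = 0.381). The classes were divided by Pi16 UMIs at unequal depth. At day 21 the median was 6332 UMIs per Myoc Scara5 fibroblast and 11175 per Pi16 fibroblast, as means over libraries. With both classes chosen at 2500 UMIs, 119 genes were called from day 0 to day 21, of which 58 were among the 121. The cause of this change in the called genes was not tested.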

How the data were processed

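The authors digested tissue from the injury site, prepared 10x 3′ libraries (chemistry version 2), sequenced them on a HiSeq 4000 and made UMI counts per gene and barcode with Cell Ranger. The deposited counts were used as raw counts of 27998 genes. The processing notes name mm10 for the replicate 4 libraries and another build for the rest, but all gene identifiers were mouse. Day 0 replicate 1 held all 737280 possible barcodes, so the minimum of 500 genes served there as the cell call.

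Members were found by the rule, and their counts were summed per library. Members and gene lists were chosen with earlier results of these data known. Libraries with at least 10 members (13 of 16) entered one edgeR 4.0.16 quasi-likelihood fit with TMM scaling, run in R 4.3.3, with Benjamini-Hochberg adjustment over all genes tested and 0.05 as the threshold. The 8 genes of the rule were left out of the results. The fit was tested on simulated data with 200 changed genes. It recovered 88.5% of genes changed 4-fold and 41.5% of genes changed 2-fold for day 7 against day 0. For the day 7 interaction, it recovered 66.5% at 4-fold and 9% at 2-fold, and 18.2% of its calls at 2-fold were false.

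Named genes were the 8 with the largest change in each direction among those called, with at least 100 CPM in the higher group and no overlap between groups, and 5 in each direction for interactions without the demand on overlap. The rule genes and mitochondrial genes were not eligible. Other genes stand as called members of the lists. Shares were compared by exact permutation of libraries after each barcode was thinned to 2500 UMIs, which left out 931 shallower day 0 barcodes and none elsewhere outside day 3. Intervals cover counting error only. Doublets were not removed, and removing the 3.9% of barcodes with the highest Scrublet scores (scanpy 1.11.5) was an alternative. Other alternatives were DESeq2 1.42.0, other scaling, filters, depths, marker numbers and leaving out each library.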

Additional observations from a re-analysis of the deposited data

Results flagged for a closer look

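Among 246 groups of 4 libraries examined, 19 had 1 library whose gap to the nearest other was larger than Dixon's 95% critical value, where chance at 1 in 20 gives 12.3. On day 0, replicate 2 stood high for Ptprb (292 CPM), Plac9b (457 CPM), Fdps (123 CPM), Adam12 (27.4 CPM), Gdf10 (493 CPM) and Igf2 (22.8 CPM) and low for Igfbp4 (794 CPM). Day 0 replicate 1 stood high for Fcer1g (44.5 CPM), Lyz2 (163 CPM), Ctss (27.8 CPM) and Timp3 (621 CPM), and its macrophage markers summed to 649 CPM, the highest of the day 0 libraries. At day 21, replicate 4 stood high for Cthrc1 (497 CPM), Tnc (26.5 CPM), Lum (3257 CPM) and Cd47 (477 CPM). Day 21 replicate 3 stood high for H19 (910 CPM) and Igf1 (2159 CPM), and replicate 2 for S100a9 (49.8 CPM) and Prg4 (180 CPM).

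The change since day 0 differed between Myoc Scara5 and Pi16 fibroblasts by a test of the difference itself for the genes named in the report. Only the former had to hold at least 2 of the 4 markers at every time. At day 7 the differences on the log2 scale were 3.73 for Angptl7, 2.25 for Col8a1, 1.55 for Sparcl1, 1.53 for Sbsn and 1.40 for Col15a1. In the other direction they were -5.22 for Ccl21a, -4.18 for Spp1, -3.95 for Hp and -2.95 for Tmem176a, and the fitted value of -7.12 for Cxcl5 is no measure of size, since Pi16 fibroblasts had no UMI on day 0. At day 21 they were 2.41 for Ptgs2, 1.78 for Vwa1, 1.49 for Ramp1, 1.48 for Vit and 1.48 for Efemp1. In the other direction they were -5.03 for Spp1, -4.32 for Tnc, -3.33 for Col11a1 and -3.30 for Fmod. The fitted value of -6.81 for Sfrp5 is no measure of size, since Myoc Scara5 fibroblasts had a mean of 1.42 CPM at day 21.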

How the results depend on the processing

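Of 4609 recomputed values of 255 gene results, 3926 kept direction and side of the threshold, 669 no longer passed it and 14 turned. Counts of called genes that moved by over 1.5 times were as follows, and causes were not tested. For day 7 against day 0 (614), 258 with at least 10 UMIs in each library, 36 with members chosen after thinning and at least 3 per library, and 387 to 540 with 1 library left out. For day 21 against day 0 (137), 289 with no filter, 73 with replicates 1 to 3, 75 with members chosen after thinning, 26 with 3 of 4 markers, 70 with at least 3 members, 36 with thinning and at least 3 members, and 75 to 122 with 1 library left out. For day 21 against day 7 (169), 269 with no filter, 98 with at least 10 UMIs, 3 with thinning and at least 3 members, and 75 to 181 with 1 library left out. For p7N3 (6), 22 with DESeq2, 65 with no filter, 38 with replicates 1 to 3, 11 with high doublet scores removed, 0 with at least 3 members (edgeR, 302 at an unadjusted p under 0.05), 1 with thinning and at least 3 members, and 0 to 39 with 1 library left out. For the interactions, 165 and 254 with no filter, 159 and 71 with other Pdgfra barcodes, 70 at day 21 with replicates 1 to 3, and 38 to 68 and 85 to 121 with 1 library left out.

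No pairing of libraries by replicate number was seen, with correlations of same-numbered deviations between -0.105 and 0.050. Sums of as few as 10 members are noisy, so these correlations cannot exclude a pairing. With the number as a replicate block, 564, 112, 149 and 15 genes were called in the 4 comparisons, and the share differences of -34.7, -26.2 and 8.47 points had an adjusted p of 0.167, where 0.125 is the smallest p possible. Other choices also missed the threshold, given for day 7 against day 0, day 21 against day 0 and day 21 against day 7. The share differences were -34.5, -29.2 and 5.37 without thinning and -26.0, -18.3 and 7.76 at 1500 UMIs. Whatever Pi16 and Lrrc15, they were -55.5, -37.5 and 18.0. With replicates 1 to 3 they were -35.8, -25.7 and 10.1, a choice that could not pass, since 0.1 is the smallest p possible there. With 1 library left out they ranged from -36.2 to -32.9, -27.8 to -24.2 and 6.92 to 10.5. The p7N3 difference ranged from -0.811 to -0.0997 and became 0.0682 at 4000 UMIs.

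Direction turned at day 7 for Hba-a1 (5.90), Hba-a2 (6.18) and Hbb-bs (5.19) with at least 3 members, and with thinning and at least 3 members for Cygb (0.14), C3 (0.078), Cyr61 (-0.39), Gdf10 (0.13) and Lpl (0.29). With that same choice it turned between days 21 and 7 for Fbn1 (0.027), Igfbp4 (0.40) and Irf1 (-0.30), and in p7N3 for Csrp2 (0.30). Acp5 turned with high doublet scores removed (-0.055), and Sbsn against other Pdgfra barcodes (-0.17). The choices of at least 3 members and of thinning with it, and the count whatever Pi16 and Lrrc15, were added after seeing the data. Members chosen after thinning or by 3 of 4 markers were not run for day 7, where too few libraries kept 10 members, nor was the day 7 interaction with both classes chosen after thinning.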
